A study of Mus musculus with 6 samples.

Results

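Megakaryocytes are the large bone marrow and fetal liver cells that shed platelets. Platelets store the chemokines PF4 and PPBP in their granules and carry adhesion receptors on their surface: the integrin made of the Itga2b and Itgb3 products, the glycoprotein Ib-IX-V complex and the collagen receptor glycoprotein VI. The Ib-IX-V complex binds von Willebrand factor, the Vwf product, which endothelium makes as well. Most of these genes are used as markers of the megakaryocyte line, and Itga2b is also active in early blood progenitors of the embryo.

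The set described here holds 9 such genes, chosen by name: Pf4, Ppbp, Itga2b, Itgb3, Gp1bb, Gp5, Gp6, Gp9 and Vwf. Their levels come from 6 Illumina bead arrays of total RNA from mouse fetal liver at embryonic day E13.5, on a C57/Bl6:129Sv background. The 3 control livers carried 1 transgene each. Control replicate 1 carried Vav-iCre, in which regulatory sequence of the blood cell gene Vav drives Cre recombinase, and control replicates 2 and 3 carried R26-LSL-KITD816V, a mutant KIT receptor in the ROSA26 locus behind a stop cassette that Cre removes. The 3 double transgenic livers carried both, so the mutant receptor can be made in cells where Vav-iCre is active. The labels do not say whether an array held 1 liver or a pool, or which arrays came from separate litters, so the p-values below reflect only how these arrays varied, and some of that variation may be technical. Controls took the first 3 positions of the single chip used, so position and group cannot be told apart.

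The probe table names 8 of the 9 genes by these symbols. It lists the only Pf4 probe as Cxcl4, an older symbol of the same gene, and that probe is included here. The 9 genes have 12 probes, of which 10 were kept because 3 or more of the 6 arrays had a detection p below 0.05. These 10 probes cover 8 genes and each was detected on all 6 arrays. The only Itgb3 probe was detected on 2 arrays, both controls, and a Vwf probe listed under the older symbol B130011O06Rik was detected on none. Over the whole table, 12262 genes had a kept probe. Levels are normalized log2 intensities, and a difference is the mean of the double transgenic arrays minus the mean of the controls. Levels of different probes cannot be set against each other, because probes differ in brightness for the same amount of RNA. Each array detected between 17249 and 17873 of 45281 probes.

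Promoter sequence of 4 members is shown, from RefSeq (GRCm38.p6), for the neighbouring chemokine genes Pf4 and Ppbp, whose levels had a Pearson's r of 0.970 over the 6 arrays, and for Gp5 and Gp9, subunits of one complex whose differences had opposite signs. Each run is the 250 bases before the gene's start, 5′ to 3′ on the gene's strand. Capitals mark the letters GATAA, a core bound by GATA factors, and GGAAG, a core bound by ETS factors, on either strand (TTATC and CTTCC on the other strand). No marked copies of the different motifs overlapped.
Pf4, chr5:90772185-90772434, plus strand: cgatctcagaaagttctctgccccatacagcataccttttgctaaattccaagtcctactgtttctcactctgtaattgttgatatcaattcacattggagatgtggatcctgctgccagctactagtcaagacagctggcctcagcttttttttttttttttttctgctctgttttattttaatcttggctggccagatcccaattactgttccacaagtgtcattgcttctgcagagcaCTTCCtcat
Ppbp, chr5:90768268-90768517, plus strand: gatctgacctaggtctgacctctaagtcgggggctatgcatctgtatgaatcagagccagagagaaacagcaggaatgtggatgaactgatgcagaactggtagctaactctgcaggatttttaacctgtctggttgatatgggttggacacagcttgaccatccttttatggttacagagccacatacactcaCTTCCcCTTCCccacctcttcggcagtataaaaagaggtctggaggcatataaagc
Gp9, chr6:87777820-87778069, plus strand: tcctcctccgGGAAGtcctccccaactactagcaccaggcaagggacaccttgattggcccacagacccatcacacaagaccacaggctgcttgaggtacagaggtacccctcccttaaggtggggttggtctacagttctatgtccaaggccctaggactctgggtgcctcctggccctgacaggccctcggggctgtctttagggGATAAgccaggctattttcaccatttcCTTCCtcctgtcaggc
Gp5, chr16:30310782-30311031, minus strand: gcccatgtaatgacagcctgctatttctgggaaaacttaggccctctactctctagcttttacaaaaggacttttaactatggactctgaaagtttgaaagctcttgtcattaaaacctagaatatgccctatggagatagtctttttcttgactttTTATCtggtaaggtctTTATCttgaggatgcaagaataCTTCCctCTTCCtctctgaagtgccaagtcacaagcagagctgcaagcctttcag

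The table of promoters held 7 of the 9 members. Of these, 6 had GGAAG in the 250 bases, against 64.1% of 32851 promoter windows, and 3 had GATAA, against 22.6%. Gp5 and Gp9 had both motifs, as did 13.2% of all windows. Gp5 held 2 copies of each motif, and Gp9 held 1 GATAA and 2 GGAAG. Pf4, Ppbp, Itga2b and Gp1bb had no GATAA in this window and Gp6 no GGAAG, which says only that these letters are not there.

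No measured member passed the test of a change between the groups. In limma's fit over all 12262 genes, 0 of 8 passed at an adjusted p below 0.05, against 8.95% of all genes, and 1 of 8, Gp1bb, had an unadjusted p below 0.05. The difference was below 0 in 6 members and above 0 in Gp5 and Itga2b, while 42.4% of all genes had a difference below 0. The median difference of the 8 members was -0.33 on the log2 scale, and that of all genes was 0.07. It came to -0.01 without double transgenic replicate 2, which was the lowest of the 6 arrays in 6 of the 8 members and in 16.4% of all genes. In bulk RNA, fewer megakaryocytes and less RNA per megakaryocyte cannot be told apart.

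**Figure D1:**
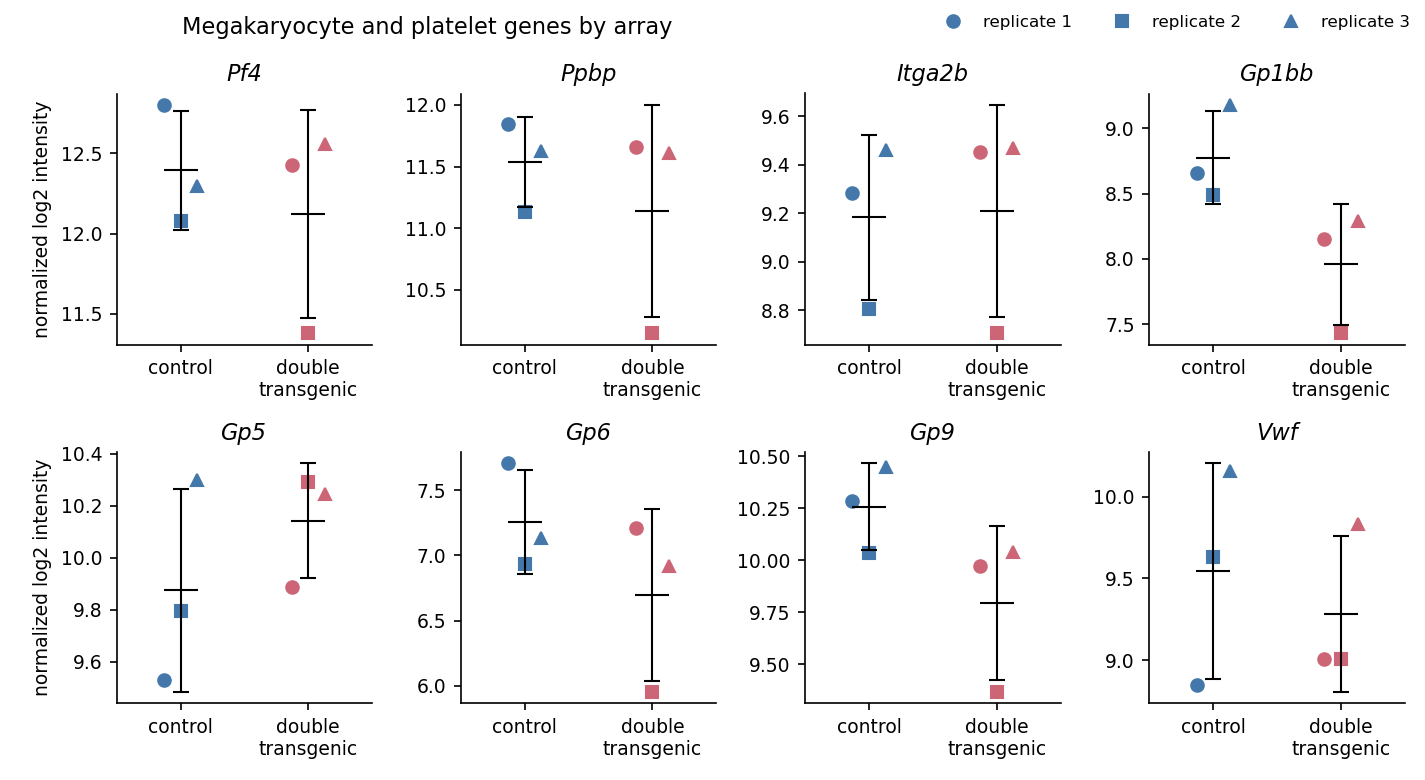
Normalized log2 intensity of the 8 measured members on each array, controls left and double transgenic livers right, with the marker shape giving the replicate number and bars the mean ± SD of 3 arrays. Each panel has its own axis. The groups overlap in 7 panels and not in Gp1bb, and the square of double transgenic replicate 2 is the lowest point in 6 panels.

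The chemokines of the platelet granules come first. PF4 binds heparin and dampens megakaryocyte growth, and PPBP is the precursor of platelet chemokines that attract neutrophils. Pf4 stood at 12.80, 12.08 and 12.30 in control replicates 1 to 3 and at 12.43, 11.38 and 12.56 in double transgenic replicates 1 to 3. The groups overlapped, and replicate 2 was the lowest in both. The difference was -0.27 (SE 0.34, n = 3 per group, adjusted p = 0.684 in limma's fit), with a 95% interval of -1.04 to 0.50.

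Ppbp stood at 11.85, 11.13 and 11.63 in controls and at 11.66, 10.15 and 11.61 in double transgenic livers on its brighter probe. Replicates 1 and 3 of both groups lay within a narrow band, and both replicates numbered 2 lay below it. The difference was -0.40 (SE 0.40, adjusted p = 0.608). A second Ppbp probe gave 11.89, 11.16 and 11.73 in controls and 11.58, 10.11 and 11.22 in double transgenic livers. Its difference was -0.62 (SE 0.37, adjusted p = 0.378 over all kept probes), so the probes had the same sign and the same lowest array. Without double transgenic replicate 2 the differences turned to 0.10 for both Pf4 and the brighter Ppbp probe. On the second Ppbp probe, double transgenic replicates 1 and 3 both lay below the control mean of 11.59, so its sign did not turn.

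The integrin that binds fibrinogen on activated platelets is a pair of the Itga2b and Itgb3 chains. Itga2b, also called CD41, stood at 9.28, 8.80 and 9.46 in controls and at 9.45, 8.70 and 9.47 in double transgenic livers. Matching replicate numbers of the groups lay close together. The difference was 0.03 (SE 0.27, adjusted p = 0.971), with a 95% interval of -0.59 to 0.65. The dimmer Itga2b probe gave 8.08, 7.98 and 8.35 in controls and 8.24, 7.25 and 8.27 in double transgenic livers, a difference of -0.21 (SE 0.29, adjusted p = 0.726). The sign of Itga2b therefore depended on the probe, and it also turned in several alternative settings.

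Itgb3 could not be tested. Its probe had signals of 144.5, 165.2 and 154.6 in controls and 135.8, 138.2 and 145.7 in double transgenic livers before normalization, beside array medians of 137 to 144. Control replicates 2 and 3 passed the detection limit and the other four arrays did not. No fold is given for it.

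The glycoprotein Ib-IX-V complex tethers platelets to von Willebrand factor under fast flow. Its subunits Ib-beta and IX come from Gp1bb and Gp9, and glycoprotein V from Gp5. The gene of the ligand-binding chain, Gp1ba, had no probe under that symbol and was not analysed here. Gp1bb stood at 8.66, 8.49 and 9.18 in controls and at 8.15, 7.43 and 8.29 in double transgenic livers. It was the member whose groups did not overlap, with all 3 double transgenic arrays below all 3 controls. Such a separation, in either direction, held for 28.5% of all genes, and with the double transgenic arrays lower for 13.7%. The means were 8.78 ± 0.36 and 7.96 ± 0.46 (SD, n = 3), a difference of -0.82 (SE 0.28, adjusted p = 0.124, 95% interval -1.46 to -0.17).

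Arrays with the same replicate number correlated above 0.1 in their deviations across genes, although numbers 2 and 3 were no closer matched than crossed, and the comparison was also fitted with the replicate number as a block. Gp1bb then passed (SE 0.16, adjusted p = 0.0270). It was the only 1 of 8 members to do so, where 14.2% of all genes passed with the block. Its difference ranged from -0.98 to -0.55 over the other settings, at an adjusted p between 0.0515 and 0.349. In the RefSeq annotation Gp1bb overlaps Septin5, and the files do not say which transcript the probe reads.

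Gp9 stood at 10.29, 10.04 and 10.45 in controls and at 9.97, 9.37 and 10.04 in double transgenic livers. The highest double transgenic array lay just above the lowest control. The difference was -0.46 (SE 0.23, adjusted p = 0.279, and adjusted p = 0.0933 with the block), and it was -0.25 without double transgenic replicate 2. Gp5 stood at 9.53, 9.80 and 10.30 in controls and at 9.89, 10.29 and 10.24 in double transgenic livers. Double transgenic replicate 2, the lowest array for Gp1bb and Gp9, was here the second highest. The difference of Gp5 was 0.27 (SE 0.24, adjusted p = 0.558). It was 0.09 without control replicate 1 and 0.48 without control replicate 3.

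**Figure D2:**
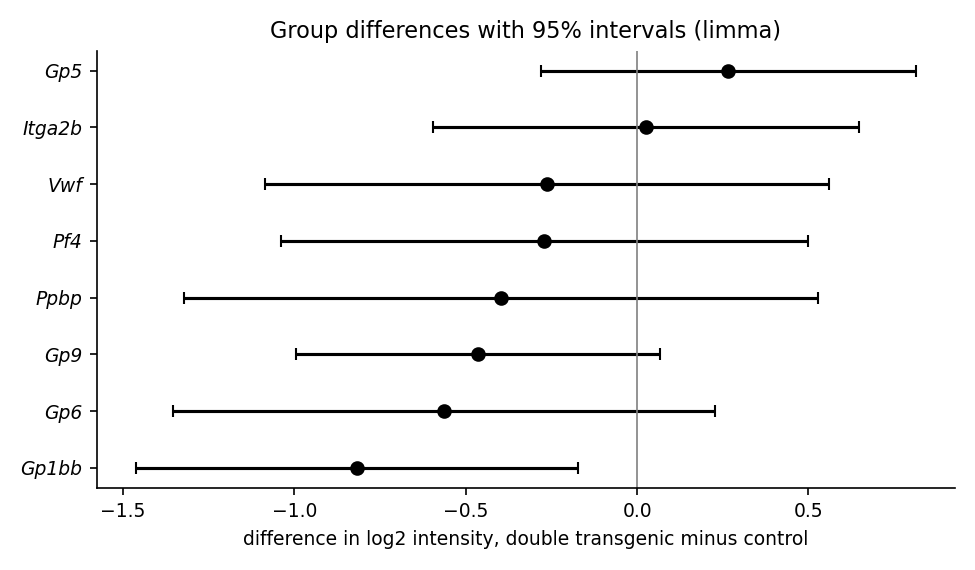
Difference in log2 intensity, double transgenic minus control, for the 8 measured members, with points from limma's fit and bars giving the 95% interval for 3 arrays per group. The intervals of 7 members include 0, and that of Gp1bb runs from -1.46 to -0.17 before adjustment over all genes.

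The subunits were then compared on the same array, as Gp5 minus the mean of Gp1bb and Gp9 on the log2 scale, a measure chosen after their values were seen. It was 0.06, 0.53 and 0.48 in controls and 0.83, 1.89 and 1.08 in double transgenic livers. All 3 double transgenic arrays lay above all 3 controls. The means were 0.36 ± 0.26 and 1.27 ± 0.56 (SD, n = 3), a difference of 0.91. No test is given, because the measure was chosen from these values. The difference was 0.59 without double transgenic replicate 2. It stayed above 0 in every setting tried, but its sign follows from how the measure was chosen. The block cannot change it, and the filters on dim probes left it at 0.91. The order of the levels of Gp5 against the others has no meaning between probes, and only its shift between groups is compared.

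**Figure D3:**
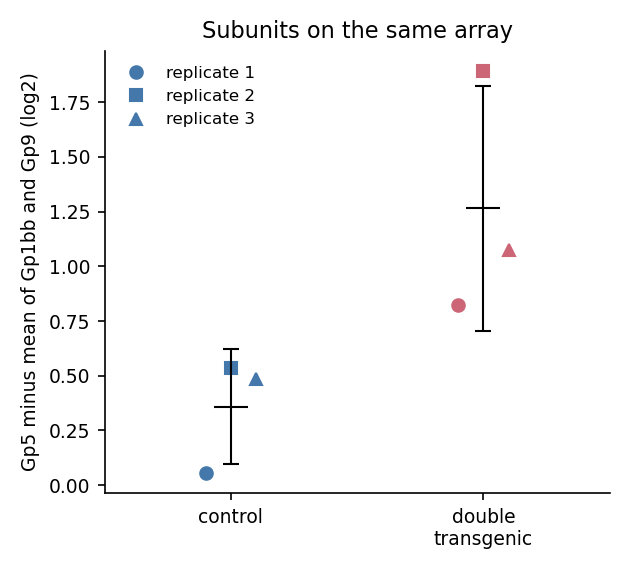
Log2 level of Gp5 minus the mean log2 level of Gp1bb and Gp9 on each array, with marker shapes for the replicate numbers and bars for the mean ± SD of 3 arrays per group. Controls lie between 0.06 and 0.53 and double transgenic livers between 0.83 and 1.89.

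Glycoprotein VI, the Gp6 product, is the collagen receptor that triggers platelet activation. Gp6 stood at 7.71, 6.93 and 7.14 in controls and at 7.21, 5.95 and 6.92 in double transgenic livers. The groups overlapped, and again both replicates numbered 2 were the lowest of their group. The difference was -0.56 (SE 0.35, adjusted p = 0.379, and adjusted p = 0.1 with the block). Leaving out double transgenic replicate 2 gave -0.19, and leaving out replicate 1 of that group gave -0.82. Its unnormalized signals, 181.9 to 326.1, lay above array medians of 137 to 144.

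Von Willebrand factor bridges platelets and exposed collagen. Vwf stood at 8.85, 9.63 and 10.15 in controls and at 9.0, 9.01 and 9.83 in double transgenic livers. The arrays numbered 1 were the lowest of each group, and the groups overlapped. The difference was -0.26 (SE 0.36, adjusted p = 0.716). It was -0.61 without control replicate 1 and turned to 0.04 without control replicate 3. Since endothelium also makes Vwf, 12 endothelial marker genes are given beside it. Of 11 measured, Lyve1, a receptor of sinusoidal and lymphatic endothelium, fell by 0.88 (SE 0.19, adjusted p = 0.0263). The other 10 missed the threshold, while 6.42% of all genes fell. With the block Tek and Stab2 passed too (adjusted p = 0.0487 and adjusted p = 0.0261), where 14.2% of all genes passed. The summed linear intensity of all 11 was 6277 to 9015 in controls and 5785 to 7353 in double transgenic livers, and Kdr was detected on at most 1 array. The part of endothelium in the level of Vwf was not tested.

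With any group shift included, Pf4, Ppbp and Gp6 moved together over the arrays, and so did Gp1bb and Gp9. Pearson's r over the 6 arrays was 0.935 to 0.970 among the first 3 and 0.975 for the pair. Gp5 stood apart from these genes, at -0.680 with Gp6 and -0.521 with Pf4. Vwf was near 0 with Pf4 (0.069) and Gp6 (-0.009), at 0.204 with Ppbp and 0.285 with Itga2b, and at 0.468 to 0.578 with Gp9, Gp5 and Gp1bb. Over all 28 pairs the median was 0.614. On deviations from the group means, which take out the group shift, Pf4, Ppbp and Gp6 were at 0.951 to 0.967. Gp1bb with Gp9 was at 0.964, Itga2b with Gp9 at 0.984 and Ppbp with Gp9 at 0.942. Gp1bb with Gp6 was lower, at 0.619, and Gp1bb with Gp5 turned from -0.203 to 0.264. Gp5 with Vwf went from 0.556 to 0.793. These values describe 6 arrays that share groups, replicate numbers and a chip, and they are given with no test. The genes most like the mean of the members were Timp3, an inhibitor of matrix proteases, at 0.992, Soat1, a cholesterol esterifying enzyme, at 0.981, Gca at 0.979, Inpp5j at 0.978 and Milr1 at 0.975, among 5810 named genes with an SD of at least 0.3 over the 6 arrays. None of them passed between the groups, with adjusted p of 0.442 to 0.750.

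**Figure D4:**
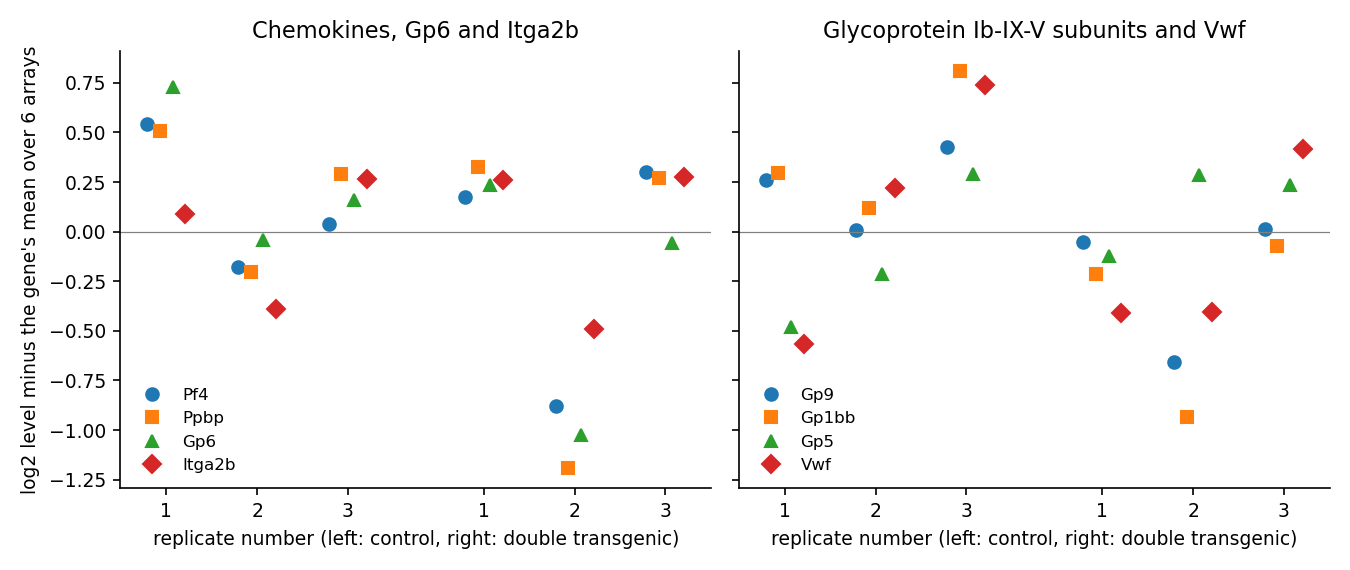
Log2 level of each measured member minus its own mean over the 6 arrays, by replicate number within controls (left in each panel) and double transgenic livers (right). Pf4, Ppbp, Gp6, Itga2b, Gp9 and Gp1bb have their lowest point in double transgenic replicate 2, where Gp5 lies above its mean.

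The control genotypes were compared with each other in a fit of 3 genotypes, in which the lone Vav-iCre array is assumed to vary like the others. No gene of 12262 passed in limma's fit (0%), and 1190 had an unadjusted p below 0.05. Among the members Vwf had the largest difference, Vav-iCre minus R26-LSL-KITD816V, of -1.05 (SE 0.42, adjusted p = 0.507). Gp6 stood at 0.67 (SE 0.49) and Pf4 at 0.61 (SE 0.48), both higher on the Vav-iCre array, and Gp5 at -0.52 (SE 0.32). In each of these 4 genes the difference between the 1 and the 2 control arrays was larger in size than the difference between the groups. The same held for Ppbp (0.47 against -0.40) and Itga2b (0.15 against 0.03). Gp1bb (-0.17 against -0.82) and Gp9 (0.04 against -0.46) went the other way.

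Other genes of megakaryocytes and platelets were taken from 7 lists of 88 genes, of which 66 were measured. Of these, 1 rose, 7 fell and 58 did not pass. Of all genes, 2.53% rose and 6.42% fell. With the replicate block 17 of the 66 passed in either direction, where 14.2% of all genes did, and genes named below for passing only with the block were chosen after their values were seen. The rise was in Gata2, and the falls were in F5, Tal1, Fga, Fgg, Vtn, Fn1 and Cxcl12.

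Of 16 adhesion receptors and their signalling partners, 10 were measured and none passed. Double transgenic replicate 2 was the lowest of the 6 arrays in all of the 10 but Lcp2, and in 16.4% of all genes. Among all genes 42.4% had a difference below 0, and the median was 0.07. All 10 differences here were below 0, from -1.07 to -0.06, with a median of -0.46. The 3 largest in size were in Cd9, a tetraspanin of the platelet surface, at -1.07 (SE 0.33, adjusted p = 0.0947), Fcer1g, the Fc receptor gamma chain that signals for glycoprotein VI, at -0.91 (SE 0.36, adjusted p = 0.179), and F11r, a junction adhesion molecule, at -0.90 (SE 0.25, adjusted p = 0.0636), all named after their values were seen. Of the 10, Fcer1g passed with the block (adjusted p = 0.0265). Of 10 receptors for platelet agonists 8 were measured and none passed, with differences from -0.65 to 0.73 and a median of -0.35. The highest was P2ry1, an ADP receptor, also named after its value was seen, at 8.35, 7.93 and 8.11 in controls and 8.92, 8.57 and 9.10 in double transgenic livers. Its groups did not overlap, as held in either direction for 28.5% of all genes. The difference of 0.73 (SE 0.21, adjusted p = 0.0719) missed the threshold. Fitted with the block it passed (adjusted p = 0.0316), and so did the thrombin receptor gene F2rl2, at -0.65 (adjusted p = 0.0366 with the block), and the adrenergic receptor gene Adra2a, at -0.63 (adjusted p = 0.0374 with the block).

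Of 15 genes of granule contents and granule formation, 12 were measured. The median was -0.12, and 1 gene fell while the other 11 did not pass. F5, coagulation factor V, which platelets carry and hepatocytes make, fell by 1.40 (SE 0.21, adjusted p = 0.00495). Its levels were 7.79, 8.37 and 8.32 in controls and 6.75, 6.61 and 6.92 in double transgenic livers. A second kept probe of F5 stood at -0.87. Selp, which encodes the granule receptor P-selectin, was detected on 0 of 3 control and 2 of 3 double transgenic arrays and was not tested.

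Of 16 megakaryocyte transcription factors, 13 were measured. Their median was 0.02, with 1 rise, 1 fall and 11 genes short of the threshold. Gata2, a factor of early progenitors and young megakaryocytes, rose by 1.07 (SE 0.19, adjusted p = 0.0105), a call lost without control replicate 2 (adjusted p = 0.0555) or double transgenic replicate 2 (adjusted p = 0.0501). Tal1, a partner of GATA factors in erythroid cells and megakaryocytes, was at -0.65 (SE 0.17, adjusted p = 0.0474), a call lost when any 1 array was left out (adjusted p up to 0.185).

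Nfe2, which drives late megakaryocyte and platelet formation and is also active in erythroid cells, was at -0.60 (SE 0.24, adjusted p = 0.184). It passed with the block (adjusted p = 0.0433) and with array weights (-0.63, adjusted p = 0.0308). Gfi1b, a repressor of megakaryocyte and erythroid cells, was at 0.83 (SE 0.25, adjusted p = 0.0805) and also passed with the block (adjusted p = 0.0232). Gata1 was at 0.00 (SE 0.18) with a 95% interval of -0.42 to 0.42 on its brighter probe, and a second kept probe stood at 0.23. Runx1, whose probe was dim, was at 0.00 (SE 0.32). The Fli1 probe was detected on 0 of 6 arrays and was not tested.

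Of 18 genes of the platelet cytoskeleton, integrin activation and platelet enzymes 16 were measured and none passed, with a median of -0.21. With the block 3 did: Apbb1ip, an adaptor of integrin activation, at 1.10 (adjusted p = 0.0182), Fermt3, which encodes the integrin activator kindlin-3, at 0.56 (adjusted p = 0.0473), and Alox12, a lipoxygenase of platelets, at -0.66 (adjusted p = 0.0416). Tubb1, the beta-tubulin of the platelet marginal band, stood at 11.97, 10.53 and 11.01 in controls and 10.42, 10.65 and 10.36 in double transgenic livers. Control replicate 1 lay far above the rest, and the groups overlapped. The difference was -0.69 (SE 0.34, adjusted p = 0.268), and its 3 kept probes ranged from -1.02 to -0.63. The difference was -0.29 without control replicate 1 and -0.25 with array weights.

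All 4 measured genes of 5 that encode ligands made by the liver fell. Fga and Fgg, chains of the fibrinogen that the platelet integrin binds, were at -2.10 (SE 0.24, adjusted p = 0.00156) and -1.99 (SE 0.36, adjusted p = 0.0102). Vtn, which encodes vitronectin, fell by 2.53 (SE 0.27, adjusted p = 0.00146) and Fn1, which encodes fibronectin, was at -1.59 (SE 0.28, adjusted p = 0.00896). A second kept probe of Fn1 stood at -1.09 and did not pass (adjusted p = 0.0534 over all kept probes). The groups of all 4 did not overlap, as held with the double transgenic arrays lower for 13.7% of all genes. Among all genes 6.42% fell. Beside these, 8 of 8 measured hepatoblast and hepatocyte markers fell, with a summed linear intensity of 75679 to 102366 in controls and 21951 to 32321 in double transgenic livers, and the Alb probe was detected on no array. Their part in the falls of the ligands and of F5 was not tested.

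Of the other CXC chemokines and their receptors, 3 of 8 were measured. Cxcl12, a stromal chemokine that retains blood progenitors, fell by 1.96 (SE 0.48, adjusted p = 0.0391), from 11.28, 11.34 and 11.04 in controls to 10.53, 8.84 and 8.40. Its 3 kept probes ranged from -1.96 to -1.54. Leaving out any array other than double transgenic replicate 1 ended the call (adjusted p up to 0.137).

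**Figure D5:**
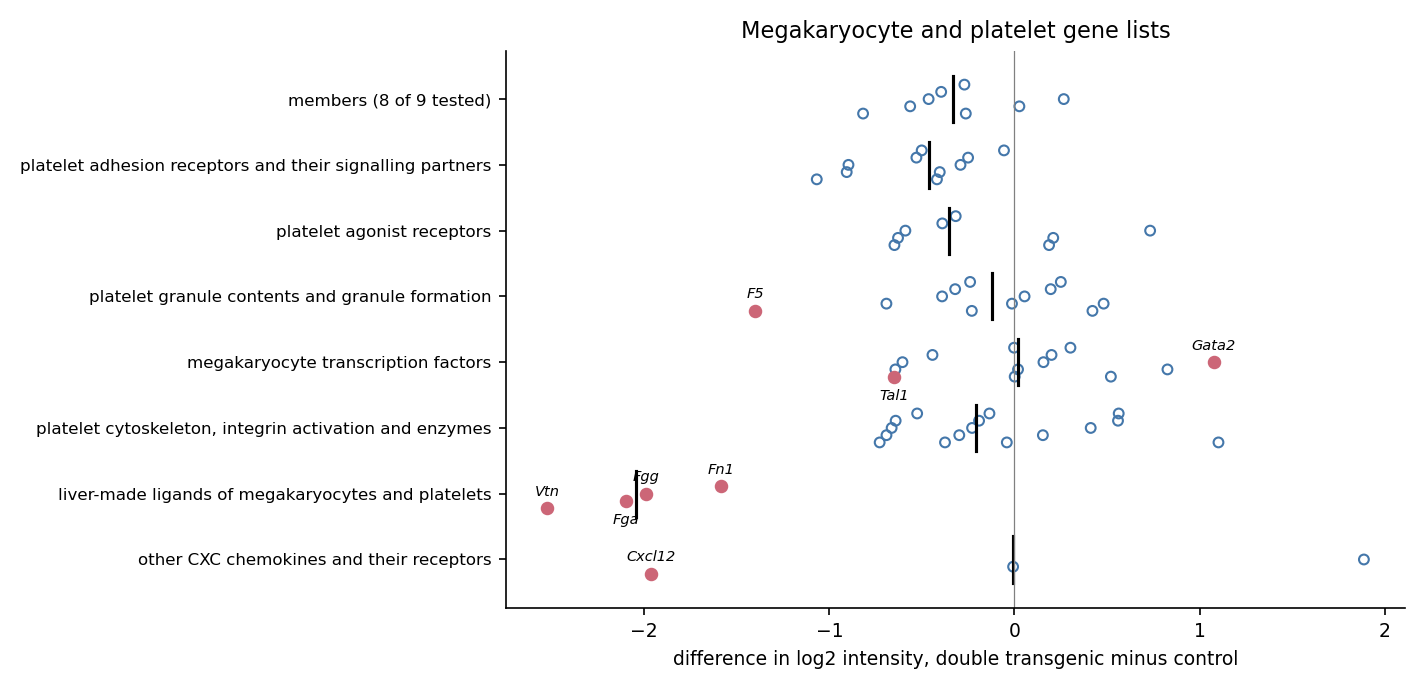
Differences in log2 intensity, double transgenic minus control, of the measured genes of each list, with filled points for genes at an adjusted p below 0.05, open points for the rest and a vertical bar at each list's median. Vertical scatter within a list has no meaning. None of the 8 members is filled, and the 4 liver-made ligands lie between -2.53 and -1.59.

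Markers of other blood cells in the same RNA are given beside the members. Of 9 macrophage markers 8 fell, and their summed linear intensity was 5389 to 5809 in controls and 1081 to 1760 in double transgenic livers. Of 6 measured erythroid markers 1 fell, of 4 stem and progenitor markers none passed, and of 5 neutrophil markers none passed. Among all genes 6.42% fell and 2.53% rose, so these small counts outside the macrophage list cannot be told from that share. The erythroid markers summed to 135198 to 135886 in controls and 100207 to 121224 in double transgenic livers. The stem and progenitor markers summed to 625 to 825 in controls and 967 to 1350 in double transgenic livers. The neutrophil sums overlapped, at 10013 to 20943 and 8510 to 19901. These sums were not tested. Of 7 mast cell and basophil markers 2 were measured. Cpa3, a mast cell protease gene, fell by 1.29 (SE 0.31, adjusted p = 0.0362). Prss34, a basophil protease gene, was detected on 0 of 3 control and 3 of 3 double transgenic arrays, so it was kept only through the group where it was high, and its difference is not counted as a rise. The summed linear intensity of the 8 platelet members themselves was 10239 to 14509 in controls and 6879 to 13482 in double transgenic livers, with the groups overlapping. The part of the other cell types in the members' levels was not tested.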

How the data were processed

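Per the file headers, the deposited table gives each probe an intensity and a detection p-value on every array. The values are linear and differ in distribution between arrays, so they were taken as not normalized. The submitters' processing notes name GenomeStudio (version not given in the sources used here). Intensity in the authors' value table lay within 0.303% of a quantile normalization of that signal, and whether background was subtracted upstream is unknown. The files name no genome build.

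Normalization used limma 3.58.1 in R 4.3.3: neqc with negative controls inferred from detection p-values, an offset of 16, quantile normalization and log2. Probes with a detection p below 0.05 on at least 3 of 6 arrays were kept (17855). Symbols were updated through RefSeq (GRCm38.p6), 8357 probes from an older symbol. The kept probe with the highest mean stood for a gene. The group comparison used lmFit and eBayes (two-sided), and Benjamini-Hochberg adjustment ran over 12262 genes, of which 1097 passed. Second probes were adjusted over all kept probes. On simulated data for this comparison, 200 of 12262 genes were changed. Of genes changed by 1 on the log2 scale 32% were recovered, and of those changed by 2, 87%. More genes than that passed in the real comparison, so the recovery there may differ. The number of arrays limits the precision.

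Deviations from the group means correlated between same-numbered arrays at 0.536, 0.283 and 0.206, each above 0.1, so the replicate number, which comes from the titles, was used as a block in an alternative. Crossed, control replicate 3 correlated with double transgenic replicate 2 at 0.371 and control replicate 2 with double transgenic replicate 3 at 0.197, so the match of numbers 2 and 3 is not shown by the data. Other alternatives were the offset, background correction, the authors' table, scaling, the filter on dim probes, the handling of probes, array weights and leaving out arrays.

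The members and lists were chosen with earlier results of these data known. Named genes were all members, 7 fixed genes, up to 4 passing genes of each list and the 5 genes most like the members. Genes named outside this rule, those that passed only with the block and cell type markers among them, were chosen after their values were seen. Some genes of the rule are not reported here.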

Additional observations from a re-analysis of the deposited data

How the results depend on the processing

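No member passed in 16 of the 17 settings tried, and with the replicate block Gp1bb alone did (1 of 8 members). The block moved the count of all genes from 1097 to 1743 and ended no call among the named genes. It added 9 calls in the other megakaryocyte and platelet lists, given in the text. The count was 2748 with array weights and 1828 without both replicates numbered 1, and it ranged from 555 to 1397 when single arrays were left out. The cause of these shifts was not tested. Among members, Gp1bb, Gp5, Gp6 and Gp9 had the same sign in all 17 settings and Pf4, Ppbp and Vwf in 16. Itga2b kept its sign in 12. These settings are not separate checks. The block and the filters on dim probes left the members' differences as they were. The authors' table and uncorrected background gave nearly the same values as each other, and smaller differences than the main fit in places. Both moved Gp6 from -0.56 to -0.28, Gp1bb from -0.82 to -0.60 and the members' median from -0.33 to -0.27. The members' median ranged from -0.56 to -0.01 without single arrays. No gene passed between the control genotypes in any setting that could be run, and that comparison has no value without control replicate 1. Of the other named genes, the calls of Tal1, Cxcl12 and Gata2 were lost in some settings. Beside the settings that leave out arrays, Tal1 was lost with median scaling (adjusted p = 0.126) and with every kept probe tested (adjusted p = 0.0552). For Cxcl12, the deposited normalized values and uncorrected background each gave an adjusted p of 0.0542, and keeping dim probes gave an adjusted p of 0.138. Signals near background limit Gp6 and leave Itgb3 unmeasured.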
